A study of Mus musculus with 4 samples.

Results

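The genes S100a8, S100a9, Ngp, Camp, Lcn2, Chil3 and Ltf, 7 of the 31053 genes counted, were followed through 2 single-cell experiments on mouse progenitors grown towards the T lineage. They were taken by symbol, and all 7 had a row in both mRNA matrices. The genes were chosen by values of these data: an earlier look at them found these genes far apart between the hashtags of an experiment. The levels by hashtag and by cluster are therefore given as a description, with no test.

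S100a8 and S100a9 encode the subunits of calprotectin, a calcium- and metal-binding protein of the neutrophil cytosol that is released as an alarm signal at sites of damage. Ngp, Camp, Lcn2 and Ltf encode proteins of the secondary (specific) granules of neutrophils. Camp is the precursor of a cathelicidin antimicrobial peptide, Lcn2 (lipocalin 2) binds bacterial siderophores, Ltf (lactoferrin) binds iron, and Ngp is a cystatin-related protein of mouse neutrophil granules. Chil3 encodes a chitinase-like protein made by maturing neutrophils and by some macrophages. In the bone marrow, granule genes are switched on in waves: the primary granule proteases first, in promyelocytes, and the secondary granule genes later, in myelocytes and metamyelocytes, under factors such as C/EBPε. These products are not part of the T-cell programme.

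The cells were bone marrow progenitors of Bcl2 transgenic mice, co-cultured with OP9-Dll1, a stromal line that presents a Notch ligand, in medium with IL-7 and Flt3-ligand at 10 ng per ml each. On day 2 the cultures of B6.Bcl2 transgenic cells, from mice of 8 to 10 weeks, received the retroviral vector MSCV-Runx1-mCherry or MSCV-empty-mCherry, and were harvested on day 4 or day 6 as live Lineage-negative mCherry+ CD45+ cells. Cultures of B6.Cas9;Bcl2 transgenic cells received, also on day 2, guides against Runx1 (E42-gRunx1-humanNGFR) and Runx3 (E42-gRunx3-mTurquoise), with 3 guide pairs per gene, or control guides that target luciferase. These were harvested on day 5 or day 8 as Lineage-negative mTurquoise+ hNGFR+ CD45+ cells. The age of the B6.Cas9;Bcl2 mice is not given in the sources used here, and equal numbers of sorted cells per culture were pooled. All cells thus carried the Bcl2 transgene, a survival gene, and the labels call them cKit-high progenitors in Phase 1. The promoter of the transgene and the Lineage antibodies are not given in the sources used here. Each experiment gave 1 pooled mRNA library, and a second library of hashtag oligos, antibody-borne tags that tell pooled cultures apart. By the labels the time in culture was 4 to 5 days for experiment 1, against 4 to 8 days for experiment 2. The 8 hashtags of an experiment are known only by their sequence, so none could be tied to a vector, a guide or a day. Each hashtag is treated as 1 sample of unknown condition, numbered in the order of the columns.

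Experiment 1 gave 8797 single cells with a clear hashtag (691 to 1291 per hashtag) and experiment 2 gave 8335 (855 to 1312 per hashtag). A hashtag held 14502385 to 38067298 UMIs (unique molecular identifiers, counted transcripts) in experiment 1, and 22272716 to 42684236 in experiment 2. The median cell had 24753 and 26338 UMIs. The 2 libraries shared 39 cell barcodes, of which 1 was rich in UMIs of the 7 genes in experiment 2 and 0 in experiment 1. All intervals below are exact 95% intervals for counting error only. They do not cover the spread between cultures.

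In the mouse genome (RefSeq annotation of GRCm38.p6) S100a8 and S100a9 are neighbours on chromosome 3, with 22.6 kb and no protein-coding gene between them. S100a8 lies at chr3:90669071-90670034 on the plus strand and S100a9 at chr3:90692630-90695721 on the minus strand. Chil3 is on the same chromosome at chr3:106147554-106167564. Camp (chr9:109847377-109849456), Ngp (chr9:110419808-110423012) and Ltf (chr9:111019292-111042766) lie within about 1170 kb of chromosome 9, with 8 coding genes between Camp and Ngp and 20 between Ngp and Ltf. Lcn2 is alone on chromosome 2 (chr2:32384637-32387739). No other annotated gene overlaps any of the 7 loci.

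The 250 bases before the RefSeq start site are shown for 5 of the genes, 5′ to 3′ on the gene's own strand. The windows of Camp and Chil3, which are not shown, held no match to the words marked below. All 7 genes had an entry in the RefSeq promoter table. The windows are chr3:90668821-90669070 (S100a8, plus strand), chr3:90695722-90695971 (S100a9, minus), chr9:110419558-110419807 (Ngp, plus), chr2:32387740-32387989 (Lcn2, minus) and chr9:111019042-111019291 (Ltf, plus). Capitals mark matches on either strand to the Runx core TGTGGT, the C/EBP-type word TTGCNNAA, the purine-rich ETS-type word GAGGAA and the TATA word TATAAA. No match overlaps another, and the TATA word of S100a8 directly follows a reverse GAGGAA.
S100a8: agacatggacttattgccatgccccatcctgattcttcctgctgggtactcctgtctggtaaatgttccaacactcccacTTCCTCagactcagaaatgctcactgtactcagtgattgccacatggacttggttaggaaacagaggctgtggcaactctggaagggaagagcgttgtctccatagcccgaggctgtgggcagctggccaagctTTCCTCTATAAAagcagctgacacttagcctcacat
S100a9: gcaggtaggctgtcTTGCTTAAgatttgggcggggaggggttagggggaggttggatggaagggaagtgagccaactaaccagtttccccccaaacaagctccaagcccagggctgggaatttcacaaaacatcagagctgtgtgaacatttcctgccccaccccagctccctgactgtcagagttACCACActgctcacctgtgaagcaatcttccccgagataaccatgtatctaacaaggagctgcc
Ngp: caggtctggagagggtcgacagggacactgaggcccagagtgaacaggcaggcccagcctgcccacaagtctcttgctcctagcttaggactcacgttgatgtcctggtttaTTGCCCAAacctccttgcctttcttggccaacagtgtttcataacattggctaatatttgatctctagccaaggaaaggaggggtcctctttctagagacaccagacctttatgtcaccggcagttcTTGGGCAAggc
Lcn2: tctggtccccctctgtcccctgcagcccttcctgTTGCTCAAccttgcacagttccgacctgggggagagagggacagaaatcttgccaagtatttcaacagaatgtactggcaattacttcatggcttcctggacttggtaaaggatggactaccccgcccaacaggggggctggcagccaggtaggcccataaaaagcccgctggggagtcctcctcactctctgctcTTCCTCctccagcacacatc
Ltf: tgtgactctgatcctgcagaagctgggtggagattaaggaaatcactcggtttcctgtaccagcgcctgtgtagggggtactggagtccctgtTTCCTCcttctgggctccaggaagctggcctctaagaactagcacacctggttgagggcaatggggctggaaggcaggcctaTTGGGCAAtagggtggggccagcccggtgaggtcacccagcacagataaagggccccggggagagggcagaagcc

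TTGCNNAA was found before S100a9, Ngp, Lcn2 and Ltf, 4 of the 7 genes, against 9.56% of the 32851 annotated promoters over the same 250 bases. Ngp held it 2 times, the nearer match ending 4 bases before the start. GAGGAA was found before S100a8, Lcn2 and Ltf (3 of 7, against 23.3% of promoters). TGTGGT was found before S100a9 only, where the match ends 59 bases before the start (1 of 7, against 14.0%). TATAAA was found before S100a8, ending 25 bases before the start (1 of 7, against 12.4%). The windows of Camp and Chil3 held none of the 4 words. A match is a run of letters and does not show that a factor binds there.

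S100a8 and S100a9 were the most abundant of the 7 genes in both experiments. Over all single cells, S100a8 stood at 70.8 UMIs per 1000000 (CPM; interval 69.7 to 72.0) in experiment 1 and at 1402 (1397 to 1407) in experiment 2. S100a9 stood at 70.9 and 1402. The other genes were lower in experiment 1, from Ngp at 12.8 CPM through Chil3 (5.47), Lcn2 (4.71) and Camp (3.14) to Ltf at 2.26. In experiment 2 the order was Ngp at 347 CPM, then Camp, Lcn2 and Chil3 close together at 126, 125 and 122, and Ltf at 50.6. The intervals of Camp (124.9 to 127.8) and Lcn2 (123.9 to 126.7) overlap, and that of Chil3 (120.7 to 123.5) lies just below both. UMIs count transcript ends, so these levels need no correction for gene length.

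In experiment 2 all 7 genes were highest in hashtag 6 and lowest in hashtag 7. S100a8 ran from 22.7 CPM in hashtag 7 through a median of 729 to 4736 in hashtag 6. S100a9 ran from 24.8 through 740 to 4508, and Ngp from 4.29 through 207 to 935. Hashtags 5 and 8 were next to hashtag 6 for each of these genes, and hashtags 1 to 4 lay between them and hashtag 7. In such sums, fewer cells of a type and less RNA per cell cannot be told apart. Camp ran from 2.42 through 79.6 to 357 CPM, and Lcn2 from 2.25 through 74.8 to 364. Chil3 ran from 2.12 through 41.7 to 478 CPM, and Ltf from 2.00 through 27.3 to 152. The ratio of the highest to the lowest hashtag was 209 for S100a8 (192 to 228), 182 for S100a9 (168 to 197) and 218 for Ngp (179 to 267). It was 148 for Camp (114 to 195), 161 for Lcn2 (123 to 216), 225 for Chil3 (170 to 303) and 76.1 for Ltf (57.1 to 104).

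All 7 genes were thus at least 4-fold apart between hashtags in experiment 2, where 6.60% of the 8784 genes compared (those averaging 5 CPM or more) were. The genes were chosen on this contrast, so nothing is read from that count. Hashtag 7 set most of the size of these ratios: over the other 7 hashtags the summed level of the 7 genes differed 11.7-fold, against 190-fold over all 8. Without hashtag 6 the summed ratio was 122.5. The low value of hashtag 7 depended on how hashtags were assigned, since with a looser rule (top tag at least 20 counts and 2 times the second) the summed ratio was 38.99.

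In experiment 1 hashtag 2 stood highest for 6 of the 7 genes. S100a8 ran from 11.7 CPM in hashtag 7 through a median of 29.3 to 256 in hashtag 2, a ratio of 22.0 (19.4 to 24.9). S100a9 ran from 4.57 in hashtag 6 through 29.9 to 254, a ratio of 55.5 (46.7 to 66.6). These ratios moved more with the processing than their counting intervals span. With a stricter cell filter (at least 1000 genes, under 5% mitochondrial UMIs), after thinning each cell to 3000 UMIs, and without the 5 barcodes of each hashtag richest in these UMIs, the ratio was 471, 338 and 171 for S100a8, and 407, 359 and 77.6 for S100a9. Lcn2 ran from 0.319 through 2.78 to 13.6 CPM, a ratio of 42.7 (22.3 to 93.9). Ngp had 2106 UMIs (57.5 CPM) in hashtag 2 and 2 UMIs in hashtag 6, and Chil3 had 775 (21.2 CPM) and 2 UMIs in the same hashtags. Camp had 601 UMIs (16.4 CPM) in hashtag 2, 67 in hashtag 5, 25 in hashtag 7, 2 in hashtag 8 and 0 in hashtags 1, 3, 4 and 6. Set against a floor of 3 UMIs in hashtag 1, the level of Camp in hashtag 2 was 208-fold higher (70.9 to 1012). Of the 601 UMIs in hashtag 2, 1 cell held 554. Without the 5 richest barcodes of each hashtag the ratio of Camp was 2.64, with hashtag 8 highest.

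Ltf departed from this order over all single cells. It was highest in hashtag 8 (5.93 CPM) and hashtag 7 (5.59), then hashtag 2 (4.53), and lowest in hashtag 3 (0.236), with a median of 1.75 and a ratio of 25.2 (11.7 to 64.4). With the same stricter filter and after the same thinning, hashtag 2 was highest for Ltf too, with ratios of 24.6 and 13.4. All 7 genes were at least 4-fold apart between hashtags in experiment 1, against 3.02% of the 8775 genes averaging 5 CPM or more. Camp (3.14 CPM over all single cells), Lcn2 (4.71) and Ltf (2.26) were under that limit and so were not among the genes compared. As before, the choice of the genes used this contrast, so nothing is read from the count. The summed ratio of 32.7 was 12.3 without hashtag 2 and 15.3 without hashtag 6.

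**Figure D1:**
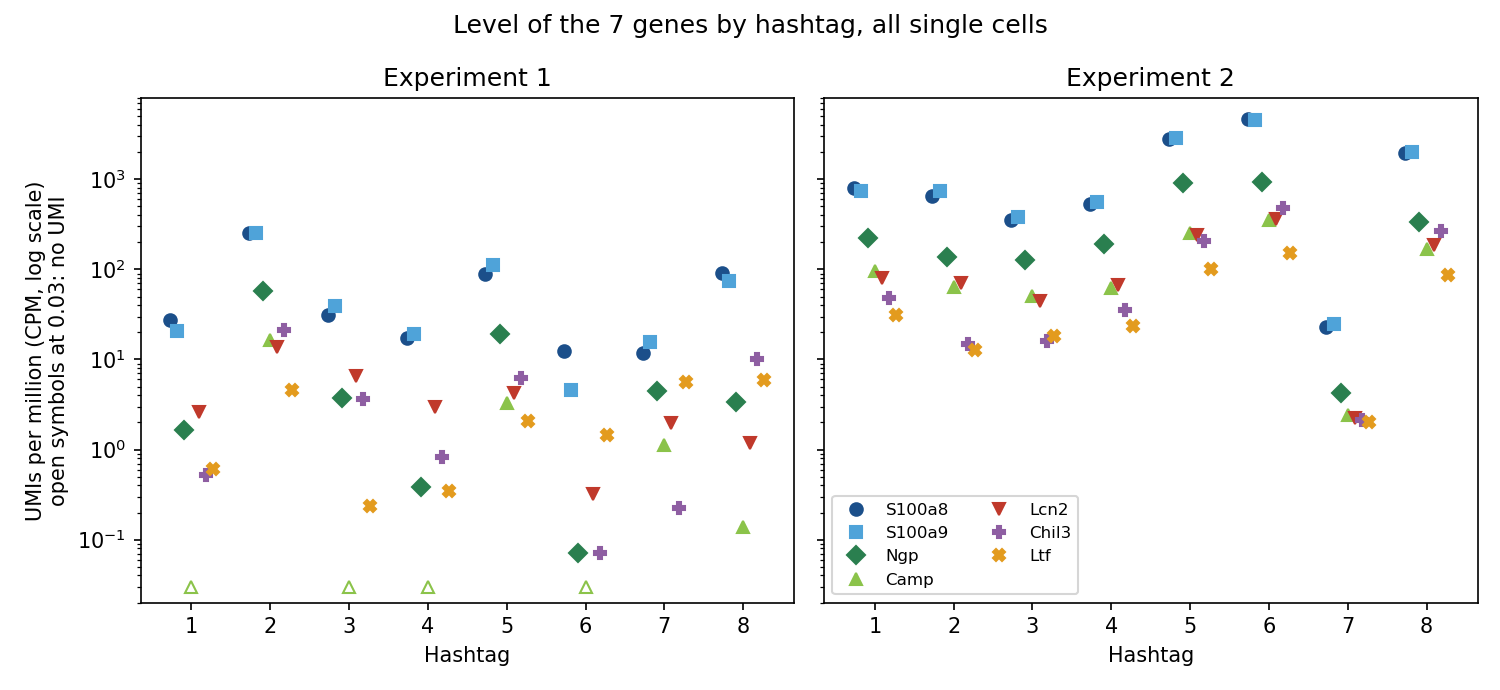
Level of each of the 7 genes by hashtag over all single cells, in CPM on a log axis, for experiment 1 (left) and experiment 2 (right). Each symbol is 1 gene in 1 hashtag, and open symbols mark 0 UMIs. In experiment 2 all 7 genes peak in hashtag 6 and drop in hashtag 7, while in experiment 1 Ltf is highest in hashtag 8, an order that a stricter cell filter or thinning changes.

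Nearly all of these UMIs sat in few cells. Cells with at least 20 summed UMIs of the 7 genes are called granule-rich here. They were 41 of 8797 single cells in experiment 1 (0.466%, 0.335 to 0.632%) and 258 of 8335 in experiment 2 (3.10%, 2.73 to 3.49%). They held 97.3% and 98.8% of all UMIs of the 7 genes. All had passed a Lineage-negative sort by the labels, which can set these shares. Barcodes with no clear hashtag held 5 and 160 more such cells. The limit fell in a sparse range, with 11 cells at 10 to 19 UMIs and 4 at 20 to 39 in experiment 1, and 25 and 13 in experiment 2. Cells with 1000 or more UMIs of the 7 genes numbered 11 and 171. In single cells these genes made up as much as 47.1% of all UMIs in experiment 1 and 55.9% in experiment 2.

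Experiment 1 rested on a handful of cells. The top cell held 16.6% of the UMIs of the 7 genes and the top 5 cells held 52.3%, while in experiment 2 the top 5 held 6.81% and the top 50 held 50.0%. In hashtag 5 of experiment 1, 1 cell gave 95.4% of these UMIs. The level of that hashtag, 235 CPM, is therefore almost wholly the level of 1 cell. The top cell gave 83.1% in hashtag 1, 82.3% in hashtag 7, 74.15% in hashtag 4 and 61.8% in hashtag 3. It gave 51.1% in hashtag 8, 42.4% in hashtag 6 and 27.3% in hashtag 2. Camp in experiment 1 was the extreme case, with 99.1% of its 695 UMIs in 5 cells.

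**Figure D2:**
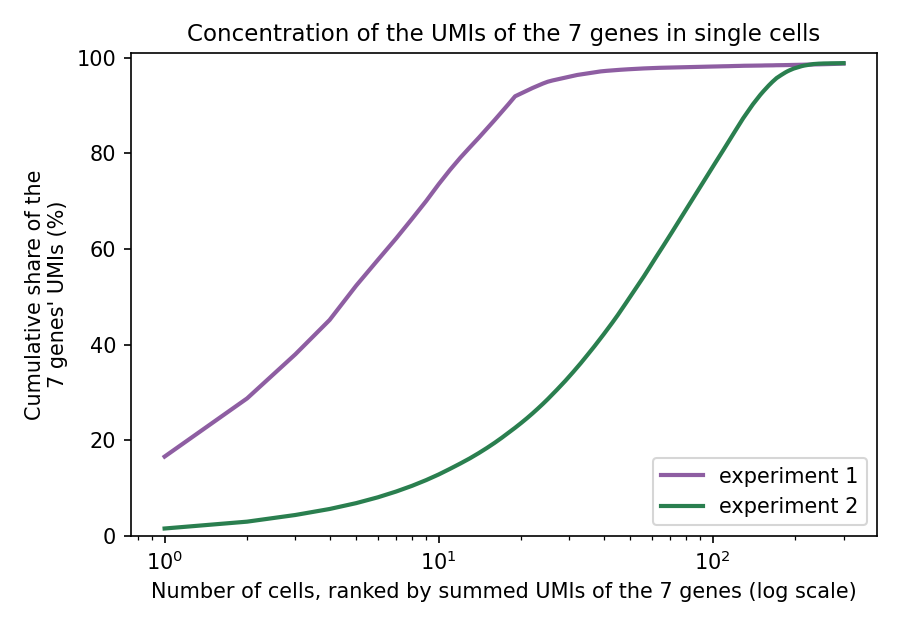
Cumulative share of the UMIs of the 7 genes (vertical, %) held by the top cells ranked by those UMIs (horizontal, number of cells, log axis), 1 line per experiment. The top 5 cells hold 52.3% in experiment 1 and 6.81% in experiment 2, and the top 250 hold 98.6% and 98.8%.

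The number of granule-rich cells followed the hashtag levels only in part. In experiment 2 hashtag 6 had 75 of 933 cells (8.04%), hashtag 5 had 47 of 988 (4.76%), hashtag 1 had 41 of 1035 (3.96%) and hashtag 8 had 29 of 855 (3.39%). Hashtags 2, 4 and 3 had 26 of 1025 (2.54%), 22 of 1170 (1.88%) and 17 of 1312 (1.30%), and hashtag 7 had 1 of 1017 (0.0983%, up to 0.547%). Hashtag 1 had more granule-rich cells than hashtag 8 but a lower summed level, 2026 against 5015 CPM. The median granule-rich cell held 489 UMIs of the 7 genes in hashtag 1 and 2963 in hashtag 8, and 4611 in hashtag 5. In experiment 1 hashtag 2 had 19 of 1199 cells (1.58%) and each of the others had 1 to 5, or 0.0835 to 0.434%.

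The granule-rich cells fell mainly into 1 cluster per experiment, in a clustering of all single cells from which the 7 genes were left out. In experiment 1 this was a granulocyte progenitor-like cluster of 916 cells led by Elane, Ms4a3, Cybb, Mpo, Hp and Prtn3, which held all 41 granule-rich cells and 98.1% of the UMIs of the 7 genes. The other 875 cells of that cluster were under the limit. In experiment 2 it was a maturing neutrophil-like cluster of 322 cells led by Elane, Wfdc21, Prg2, Gm5483 and Cebpe, with 235 of the 258 granule-rich cells and 96.1% of the UMIs. Of its cells, 87 were under the limit. Its name came from 6 maturing neutrophil markers among the 50 leading genes, against 5 granulocyte progenitor markers. At resolution 1.0 the granulocyte-like cells of experiment 2 took both names. The remaining 23 granule-rich cells of experiment 2 were spread over 7 further clusters, with 8 of them in the stromal-like cluster. The size of these clusters depended on the settings. The 916 cells became 89 at resolution 1.0, 535 without the highest Scrublet scores and 519 with the stricter cell filter. The 322 became 170 with 3000 variable genes, 173 when the 7 genes were kept and 156 with the stricter filter. The numbers of their cells under the limit therefore hold for the clustering used here.

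Those 8 cells also carried 263 to 992 UMIs of the 9 stromal markers, whereas the median granule-rich cell carried 0. Their median depth was 74996 UMIs, against 49959 in the whole cluster. Whether such a barcode holds more than 1 cell was not tested. They held 14026 of the 831430 UMIs of the 7 genes.

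Granule-rich cells carried granulocyte markers, with those of progenitors more frequent in experiment 1. At least 5 UMIs of the 6 granulocyte progenitor markers were present in 97.6% of granule-rich cells in experiment 1 and in 65.9% in experiment 2, against 40.7% and 43.8% of the other cells. At least 5 UMIs of the 13 maturing neutrophil markers were present in 97.6% and 96.9%, against 2.09% and 5.46% of the other cells. At least 5 UMIs of the 11 monocyte or macrophage markers were present in 90.2% and 73.6% of granule-rich cells, against 33.2% and 34.4% of the others. Of these markers, 1 of 6 averaging 5 CPM or more in experiment 1 and 2 of 7 in experiment 2 were at least 4-fold higher in granule-rich cells. The share of all genes was 1.11% and 1.43%, and the median fold of these markers was 1.26 and 1.51. Ly6c2 was at 630 against 2.18 CPM in experiment 1 and at 407 against 5.80 in experiment 2. In experiment 1 it reached the 5 CPM average only through the granule-rich cells, so its place in the count was fixed. The summed level of the 11, with Ly6c2 included, was 903 against 198 CPM in experiment 1 and 851 against 252 in experiment 2. Their part in the results was not tested. T-lineage markers were low in granule-rich cells. In experiment 1, Tcf7 stood at 4.01 CPM in granule-rich cells and 165.5 in the others, and no UMI of Cd3g or Bcl11b was seen in them. Of the T-lineage markers with enough UMIs, 8 of 8 in experiment 1 and 8 of 9 in experiment 2 were at least 4-fold lower, where 3.88% and 1.79% of all genes were. Granule-rich cells had a median of 34951 UMIs in experiment 1, against 24712 in the others, and 23648 against 26377 in experiment 2.

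Among the primary granule genes, which are made before the secondary ones, 5 of 10 were at least 4-fold higher in granule-rich cells than in the others in each experiment. The background is 1.11% of genes in experiment 1 and 1.43% in experiment 2. It includes those of the 7 genes that averaged 5 CPM or more, although they define these cells. Prtn3, a serine protease, stood at 6474 CPM against 185 in experiment 1 and at 3008 against 242 in experiment 2. Elane, neutrophil elastase, stood at 4061 against 8.22 and at 2565 against 15.4. Mpo, myeloperoxidase, stood at 3595 against 25.4 and at 1560 against 35.3. Ctsg, cathepsin G, stood at 3249 against 114 and at 1438 against 120. The median fold of the list was 16.2 in experiment 1 and 7.53 in experiment 2, and that of all genes was 0.912 and 0.840.

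Of the other secondary and tertiary granule and late neutrophil genes that averaged 5 CPM or more over all cells, 8 of 9 in experiment 1 and 10 of 10 in experiment 2 were at least 4-fold higher in granule-rich cells. In experiment 2, Wfdc21 (912 against 0.567 CPM), Slpi (127 against 4.36) and Hdc (91.9 against 4.38) reached that average only through the granule-rich cells, so they had to differ and nothing is read from that count. Lyz2, lysozyme, stood at 916 CPM against 17.1 in experiment 1 and at 4679 against 62.7 in experiment 2. Pglyrp1, a peptidoglycan recognition protein, stood at 248 against 10.4 and at 1053 against 9.87. The summed level of the 23 genes was 2763 against 124 CPM in experiment 1 and 8990 against 204 in experiment 2.

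Of the granulocyte transcription factors with an average of 5 CPM or more, 3 of 11 (Cebpd, Cebpa and Gfi1) exceeded the other cells 4-fold or more in experiment 1, and 1 (Egr1) was as far below them. In experiment 2, 2 of 12 (Cebpe and Cebpd) were at least 4-fold higher and 0 lower. Cebpd in experiment 1 (98.2 against 4.63 CPM) and Cebpe in experiment 2 reached that average only through the granule-rich cells, so the choice of genes fixed their place in these counts. Spi1, which encodes PU.1, was at 483 against 159 CPM in experiment 1 and at 499 against 198 in experiment 2. Cebpe, which encodes C/EBPε, was at 223 against 1.37 CPM in experiment 1, where its mean over all cells was under the 5 CPM limit, and at 281 against 1.35 in experiment 2. Runx1, named here as the factor under study although outside the naming rule, was at 41.4 against 95.3 CPM and at 51.6 against 66.5. Counts of Runx1 include any transcript of the vector that matches the gene.

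Most other S100 genes, relatives of S100a8 and S100a9, were not higher to that extent in these cells. Of 6 measured well enough, 1 was at least 4-fold higher in each experiment, S100a1, at 50.1 against 6.37 CPM and at 67.2 against 8.67. In experiment 1, 3 (S100a4, S100a6 and S100a10) were at least 4-fold lower, and in experiment 2, 0. S100a11 was at 450 against 224 CPM and at 904 against 395. S100a10 was at 44.8 against 338 and at 203 against 411, and S100a6 at 20.7 against 139 and at 534 against 302. Among related chitinase-like, lipocalin and stefin genes, Lcn4 was at least 4-fold lower in both experiments. In experiment 2, Stfa1, a stefin, was at 248 against 0.146 CPM and BC100530 at 166 against 0.0754, seen in only 31 and 19 granule-rich cells, and both averaged 5 CPM only through those cells. Chil1, a relative of Chil3, was at 77.4 against 0.0576.

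The genes most like the 7 were ranked by the Pearson correlation across single cells with their mean, on the log(1 + counts per 10000 UMIs) scale, over all genes with a UMI in at least 20 cells. The points share a library and a depth range, and the values describe these cells. In experiment 2 the first 10 were Wfdc21 (r = 0.935 over 8335 cells), Lrg1 (0.886), Cebpe (0.871), Pglyrp1 (0.852), Chil1 (0.821), Mcemp1, Orm1, Itgb2l, C3 and Trem3 (0.764). In experiment 1 they were Wfdc21 (r = 0.869 over 8797 cells), Fcnb (0.829), Lrg1 (0.798), Mcemp1 (0.758), Orm1, Clec4b2, Ly6c2, Clec4a2, Cebpe and Elane (0.606). Wfdc21, a whey acidic protein-type gene, came first in both lists, and 5 genes (Wfdc21, Lrg1, Cebpe, Mcemp1 and Orm1) stood in both.

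Among the 7 genes themselves, S100a8 and S100a9 were the closest pair across all single cells, with r = 0.917 in experiment 1 and 0.944 in experiment 2. Within granule-rich cells alone, Camp and Ltf were as close, with r = 0.961 over 41 cells and 0.902 over 258. S100a8 and Ltf were further apart there (0.532 and 0.597), as were Ngp and Chil3 (0.394 and 0.591). Only 5 granule-rich cells of experiment 1 held Ltf and 5 held Camp, so the values of experiment 1 rest on those.

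The make-up of the UMIs of the 7 genes shifted with the primary granule content of the cell. The granule-rich cells of experiment 2 were split by the share of their UMIs from Elane, Mpo, Prtn3, Ctsg, Ms4a3 and Prss57, with limits chosen after the data were seen. At 2% or more (40 cells), S100a8 made up 46.9% of the UMIs of the 7 genes, Camp 0.482% and Ltf 0.00659%. At 0.5 to 2% (50 cells) these shares were 42.3%, 0.912% and 0.112%. At 0.05 to 0.5% (50 cells) they were 38.4%, 3.92% and 1.09%, and under 0.05% (118 cells) they were 36.4%, 5.11% and 2.32%. Camp and Ltf thus had a larger share of these UMIs in cells with fewer primary granule transcripts, while S100a8 had a smaller one, with all hashtags pooled. Within hashtags 1 and 2 this did not hold for S100a8, whose median share was 53.3% and 37.6% in cells below 0.5%, against 43.6% and 34.7% in the rest. In hashtag 1 the median shares of Camp and Ltf were 0 on both sides of 0.5%.

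Lcn2 went from 0.879% through 1.61% and 3.51% to 4.82% of the UMIs of the 7 genes as the primary granule share went down. Ngp was at 5.82% in cells with 2% or more and at 9.91%, 10.6% and 10.4% in the others. In the median cell, Ngp was at 3.04%, 0.142%, 3.70% and 9.57% in the same order, lowest at 0.5 to 2%. Chil3 had no order, at 4.14%, 3.65%, 4.67% and 2.56%. S100a9 moved little, between 37.9% and 41.7%. Ltf was present in 4 of 40 cells with 2% or more (10.0%) and in 85 of 118 cells under 0.05% (72.0%), although the latter were shallower, with a median of 12127 UMIs against 33718.

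As levels, Ltf was at 5.72 CPM in cells with 2% or more and at 4573 CPM under 0.05%, and Camp at 418 and 10051 CPM. S100a8 differed less, at 40768 and 71511 CPM. Other genes, chosen here after their values were seen, moved along the same split. Mmp8, Cd177 and Retnlg were at 0, 2.15 and 0 CPM in cells with 2% or more. Under 0.05% they were at 177, 238 and 132 CPM. Fcnb, of the same list of secondary and tertiary granule and late neutrophil genes, went the other way, from 213 to 106 CPM. Cebpe was at 379 and 326 CPM, a smaller difference than any of these.

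The shift was the same in direction when the primary granule share was taken over UMIs outside the 7 genes, an alternative added after the data were seen. Camp then went from 0.492% (45 cells) to 4.90% (105 cells) and Ltf from 0.0108% to 2.28%. Experiment 1 had 18 cells with 2% or more, 20 at 0.5 to 2%, 1 at 0.05 to 0.5% and 2 under 0.05%. In its 18 cells Camp had 0 UMIs and Ltf made up 0.00675%, and in the 2 cells Camp made up 8.28% and Ltf 2.19%. Those 2 cells are too few to describe a stage.

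**Figure D3:**
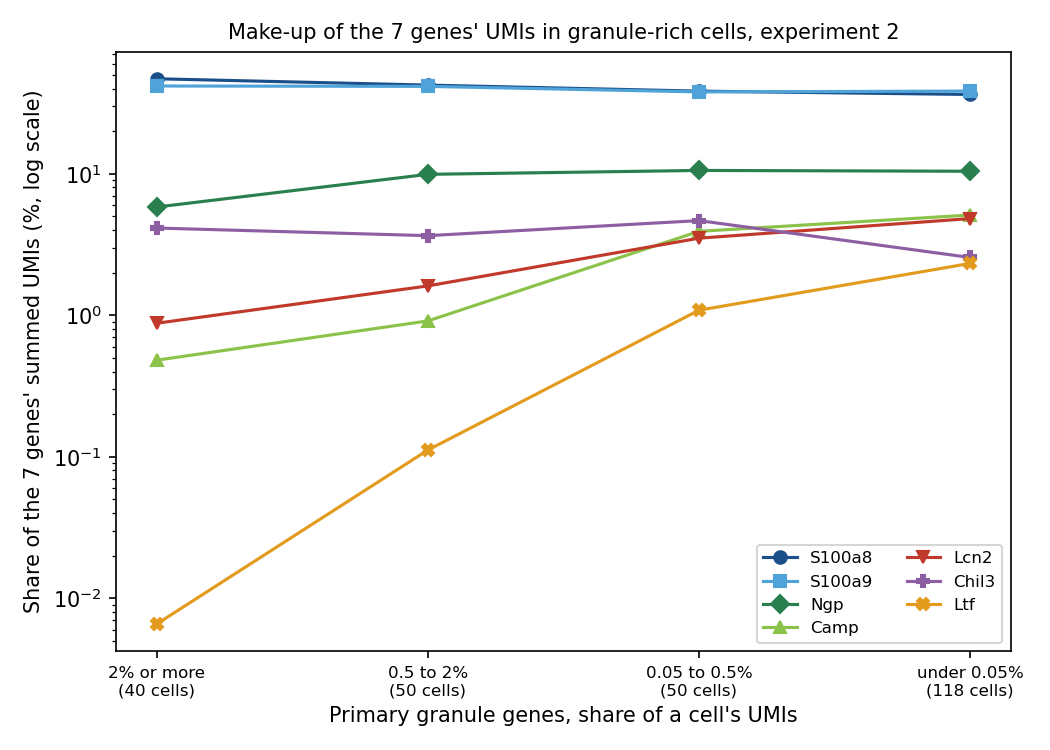
Share of the summed UMIs of the 7 genes taken by each gene (vertical, %, log axis) in the 258 granule-rich cells of experiment 2, split by the share of a cell's UMIs from 6 primary granule genes (horizontal, highest on the left). Ltf goes from 0.00659% to 2.32% and Camp from 0.482% to 5.11%, while S100a8 goes from 46.9% to 36.4%.

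The split differed between hashtags of experiment 2. Below 0.5% primary granule share stood 30 of 41 granule-rich cells in hashtag 1, 32 of 47 in hashtag 5, 39 of 75 in hashtag 6, 25 of 29 in hashtag 8 and 12 of 26 in hashtag 2. Hashtags 3, 4 and 7 had 11 of 17, 18 of 22 and 1 of 1. In those cells the median share of Camp was 6.58% in hashtag 3, 4.11% in hashtag 5, 2.36% in hashtag 6, 1.93% in hashtag 2, 1.84% in hashtag 4, 1.27% in hashtag 8 and 0% in hashtags 1 and 7. Hashtag 1 thus had many granule-rich cells of low primary granule content with no Camp in the median cell, and S100a8 made up 53.3% of their UMIs of the 7 genes in the median. Hashtag 5 had the largest median granule-rich cell and a median Ngp share of 12.5% in these cells.

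Outside the granule-rich cells, experiment 2 showed a low and even level of S100a8 and S100a9 in every hashtag. Lcn2 and Ltf were less even, at 1.76 to 4.91 and 0.902 to 3.94 CPM by hashtag. S100a8 ran only from 13.8 to 17.0 CPM and S100a9 from 14.6 to 16.7 CPM over the 8 hashtags, although their totals differed 209-fold and 182-fold. Hashtag 7, with 1 granule-rich cell, stood at 15.5 and 16.0 CPM. A UMI of S100a8 was seen in 32.5% of the other cells, and in T-lineage-like cells of cluster 1 in 29.7% at a median depth of 24214 UMIs. It was seen in 32.6% of early progenitor-like cells at a median of 27829 UMIs and in 25.6% of conventional dendritic-like cells at 20273. The share was similar in these clusters, at somewhat different depths. Nothing is read from it about expression in these cells, and its source was not tested. By the make-up, S100a8 was 34.7%, S100a9 35.1% and Ngp 10.1% of these UMIs, against 39.3%, 39.3% and 9.69% in granule-rich cells. Higher levels of S100a8 stood in the maturing neutrophil-like cells under the limit (43.7 CPM), an unnamed cluster led by Ccl22 (24.3 CPM) and 54 shallow cells (median 1690 UMIs) at 212 CPM, from 29 UMIs.

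In experiment 1 the same cells held far less, with S100a8 at 0.512 CPM (16 UMIs, hashtag 4) to 1.53 CPM (55 UMIs, hashtag 2) and S100a9 at 0.694 to 1.12 CPM by hashtag. The level of S100a8 was thus less even over hashtags than in experiment 2. Camp had 6 UMIs among 8756 cells. Lcn2 and Ltf were the exceptions in experiment 1. There, 98.7% of S100a8 UMIs lay in granule-rich cells, but 79.4% of those of Lcn2 and 34.4% of those of Ltf. In experiment 2 these shares were closer, at 98.95% for S100a8, 97.78% for Lcn2 and 96.46% for Ltf.

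Ltf was found in 283 of the 8756 other cells of experiment 1, and 275 of these had no UMI of S100a8 or S100a9. It had 159 UMIs per 100 of S100a9 there, against 1.11 in granule-rich cells. By hashtag it stood at 5.90 CPM in hashtag 8 and at 4.69 in hashtag 7, and at 0.237 to 1.46 CPM in the other 6. The values of hashtags 7 and 8 do not overlap the rest by their intervals.

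By cluster, Ltf was highest in cluster 7 of experiment 1, at 9.32 CPM (7.73 to 11.1), with a UMI in 95 of 841 cells (11.3%, 9.24 to 13.6%) at a median depth of 13735 UMIs. This cluster, led by Sh2d1a, AA467197, Capg, Rgs1 and Ccl5, took no name, and 827 of its 841 cells were of hashtags 7 and 8. The T-lineage-like cluster 3 was next, at 3.44 CPM (2.75 to 4.24; 7.12% of 1096 cells at a median of 23170 UMIs). Clusters 6 and 8, led by Pgam2, Gsn, Zbtb16 and Cd3g, had 1 Ltf UMI among 878 cells and 3 among 797. No cell under the limit had more than 4 UMIs of Ltf in these clusters.

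Within clusters 2 and 3 the levels of Ltf were also higher in hashtags 7 and 8 than in the other 6. No intervals were taken by hashtag within clusters, so how far counting error covers these gaps was not tested. Clusters 1 and 4 held too few Ltf UMIs in hashtags 7 and 8 to tell. In cluster 2, led by Ube2c and Nusap1, Ltf was at 5.5 and 8.4 CPM in hashtags 7 and 8 and at 0.7 to 1.9 in the other 6. These rest on 6 and 11 UMIs in hashtags 7 and 8, and the next level, that of hashtag 6, on 9 UMIs. In cluster 3 it was at 6.8 and 8.3 CPM, from 22 and 17 UMIs, and at 0.9 to 3.6 CPM in the others. The highest of those others, hashtag 6, had 21 UMIs. In cluster 1 hashtags 7 and 8 had 1 UMI each (0.723 and 0.751 CPM), below hashtag 5 at 1.09 CPM. In cluster 4 hashtags 7 and 8 had 0 and 1 UMI (0 and 1.45 CPM), from 21 and 27 cells. The other hashtags of cluster 4 were at 0.250 to 0.928 CPM. After thinning each cell to 3000 UMIs, 1.92% of cells of cluster 7, 1.65% of cluster 3 and 0% of clusters 6 and 8 kept a UMI, a level too near 1 UMI per cell to be ranked further.

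In experiment 2 the T-lineage-like cluster 1, led by Gm4632, Akr1c12, Tubb3 and Sh2d1a, had the highest Ltf among clusters of 100 cells or more outside the granule-rich cells, at 4.36 CPM (3.74 to 5.04), against 0.658 to 1.96 in the others. The highest of those, cluster 2, had 17 of its 66 UMIs in 1 cell. Cluster 1 had 27.6 UMIs of Ltf per 100 of S100a9, against 3.52 in granule-rich cells. By hashtag, Ltf outside the granule-rich cells was at 3.94 CPM in hashtag 8 and 3.00 in hashtag 6, and at 0.902 to 2.00 in the others. These levels held with stricter limits: counting only cells with fewer than 5 UMIs of the 7 genes, hashtags 7 and 8 of experiment 1 were at 4.65 and 5.77 CPM, and hashtags 6 and 8 of experiment 2 at 2.67 and 3.84.

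**Figure D4:**
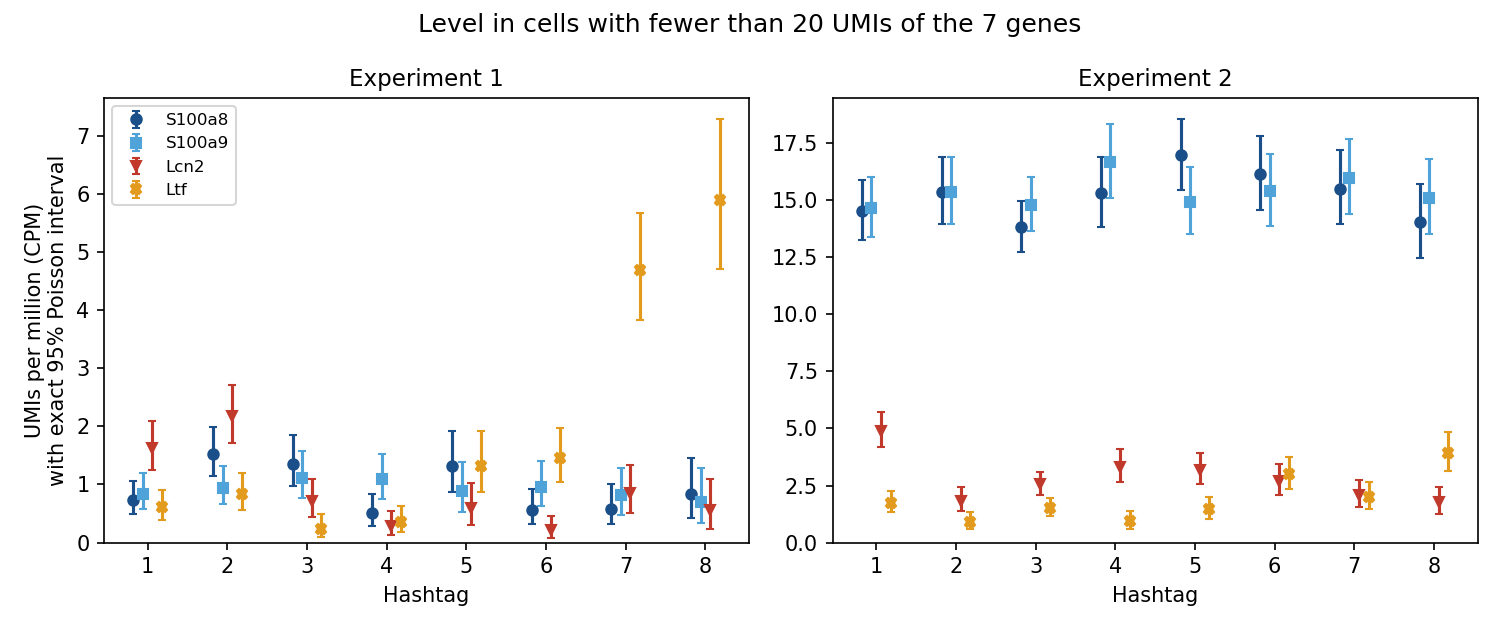
Levels of S100a8, S100a9, Lcn2 and Ltf by hashtag in cells with fewer than 20 UMIs of the 7 genes, in CPM with exact 95% Poisson intervals, for experiment 1 (left) and experiment 2 (right, with its own axis). In experiment 2 S100a8 and S100a9 lie between 13.8 and 17.0 CPM in every hashtag, and in experiment 1 S100a8 runs from 0.512 to 1.53 CPM. Ltf stands out in hashtags 7 and 8 of experiment 1.

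Outside the granule-rich cells, Lcn2 was highest per UMI in mast or basophil-like cells and in the granulocyte clusters, among clusters of at least 100 cells and the 87 maturing neutrophil-like cells. They held 26 and 177 of its UMIs in experiment 1, and 94 and 141 in experiment 2, where clusters 3 and 1 held 82 and 74 at lower levels. In the mast or basophil-like cluster of experiment 1 it was at 9.65 CPM (6.30 to 14.1), with a UMI in 9 of 112 cells. In that of experiment 2, led by Prss34, Mcpt4 and Mcpt1, it was at 33.9 CPM (27.4 to 41.5), with a UMI in 30 of 118 cells (25.4%, 17.9 to 34.3%) and up to 10 UMIs in a cell. S100a8 in that cluster was at 15.2 CPM, within the range of most other clusters, and there were 303 UMIs of Lcn2 per 100 of S100a9, against 8.83 in granule-rich cells. Below the limit, the granulocyte progenitor-like cells of experiment 1 had Lcn2 at 6.90 CPM and the maturing neutrophil-like cells of experiment 2 at 41.6 CPM. Elsewhere, in clusters of at least 100 cells, Lcn2 was at most 0.154 CPM in experiment 1 and ran from 1.37 to 2.86 CPM in experiment 2.

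**Figure D5:**
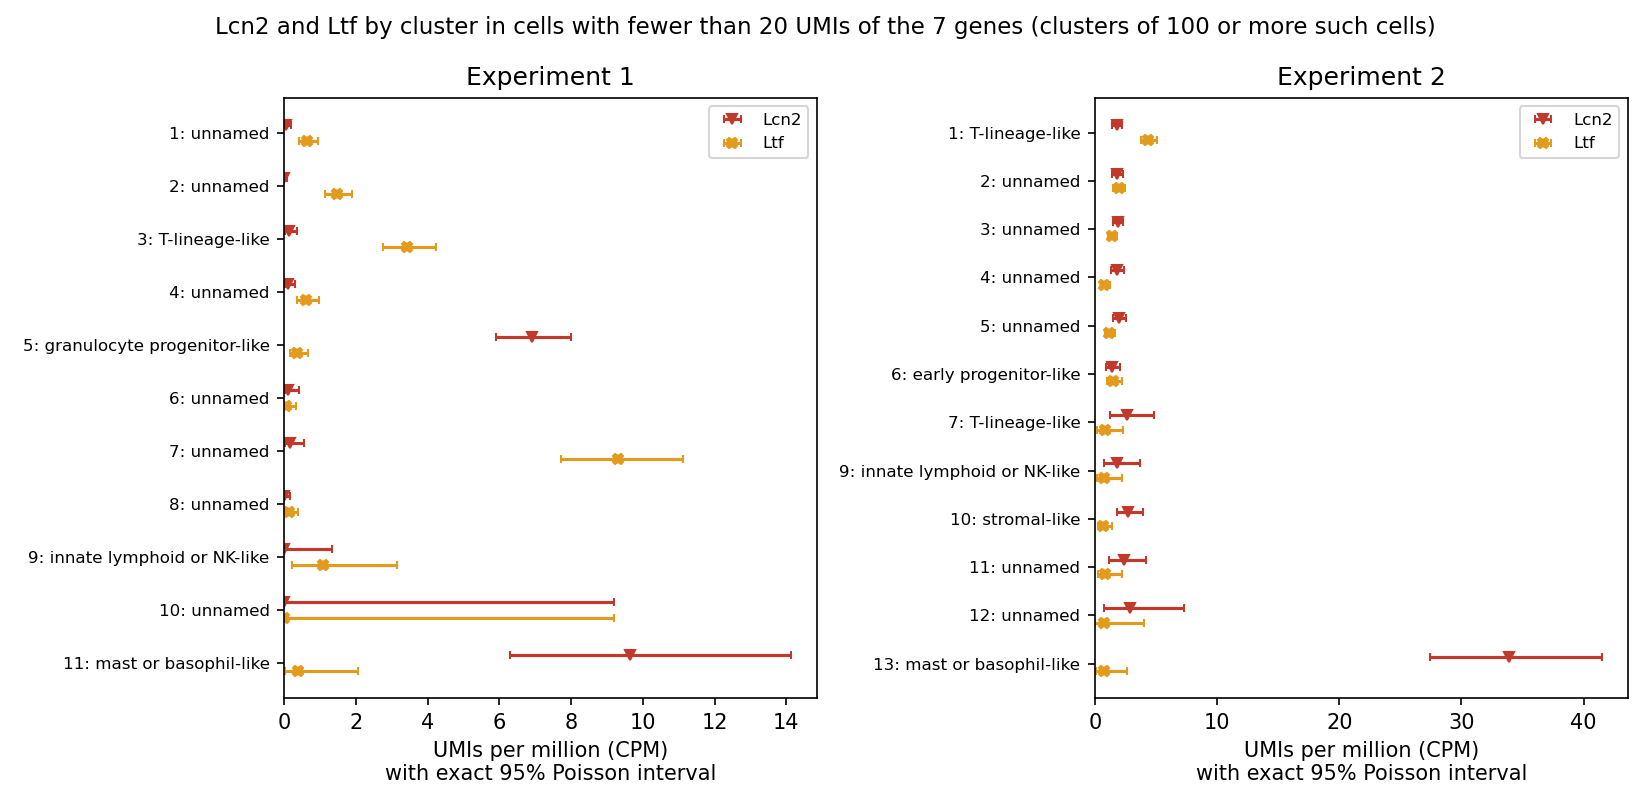
Levels of Lcn2 (red) and Ltf (orange) by cluster in cells with fewer than 20 UMIs of the 7 genes, in CPM with exact 95% Poisson intervals, for clusters of at least 100 such cells. Lcn2 stands out in the mast or basophil-like clusters (9.65 and 33.9 CPM), and Ltf in clusters 7 and 3 of experiment 1 (9.32 and 3.44 CPM) and cluster 1 of experiment 2 (4.36 CPM).

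Between the experiments, each of the 7 genes exceeded a 2-fold difference in favour of experiment 2, as did 1.86% of the 8770 genes compared. In experiment 1 Camp (3.14 CPM), Lcn2 (4.71) and Ltf (2.26) were under 5 CPM. The 7 genes were also chosen on levels of these data, so nothing is read from that count. The ratio was 19.8 for both S100a8 (19.5 to 20.1) and S100a9 (19.5 to 20.1), 22.3 for Chil3, 22.4 for Ltf, 26.6 for Lcn2, 27.0 for Ngp and 40.2 for Camp (37.3 to 43.4). With 1 library per experiment there is no replicate check, and the experiments differ in culture time, pool and library at the same time, so these cannot be told apart. Hashtag 2 of experiment 1 weighed on these values: without it the ratio was 41.2 for S100a8, 87.2 for Ngp and 248 for Camp.

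Experiment 2 had both more granule-rich cells and more UMIs of these genes in them. The share of granule-rich cells was 0.466% and 3.10%, and within them the level of S100a8 was 10332 CPM in experiment 1 and 46412 in experiment 2. Ltf differed most there, at 115 and 1632 CPM, and Camp was at 460 and 4164. Outside the granule-rich cells the ratio of experiment 2 to experiment 1 was 16.0 for S100a8 (13.9 to 18.5) and 24.0 for Ngp (17.5 to 33.9), but 2.93 for Lcn2 (2.51 to 3.44) and 1.24 for Ltf (1.07 to 1.43). Ltf outside the granule-rich cells thus differed far less between the experiments than S100a8 did there.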

How the data were processed

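Each experiment was 1 mRNA library and 1 hashtag library, made with 10x Chromium v3 per the labels' protocols. The deposited mRNA matrices hold raw UMI counts per gene and cell, made by the authors with Cell Ranger 3.0.0 on mm10/GRCm38, per the submitters' processing notes. The deposited hashtag tables hold raw counts for 8 tags per cell. A minimum of 500 detected genes and a ceiling of 10% mitochondrial UMIs selected cells, and a cell took a hashtag when its top tag had at least 50 counts and 3 times the second. Doublets were treated only by that rule. UMIs were summed per hashtag and scaled to CPM, with exact 95% Poisson, conditional and Clopper-Pearson intervals and a floor of 3 UMIs.

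Clusters were made without the 7 genes (2000 variable genes, 30 components, 15 neighbours, leidenalg 0.10.2 at resolution 0.5) and named from marker lists when 1 class had at least 3 markers, and more than any other, among the 50 leading genes, unless another class led the top 10, the cluster was shallow, or mature T-cell genes led a cluster of another class. That naming rule and the limits on primary granule share were set after the data were seen. Scrublet scores came from scanpy 1.11.5. Factors from edgeR 4.0.16 (TMM) and DESeq2 1.42.0 served only as scaling alternatives. The script for hashtag ratios was tested on simulated data. Members and lists were chosen with earlier results of these data known. The text names the 7 genes, at most the 4 highest of each list and the 10 most alike genes, and says where it goes beyond. No test of a condition was possible, so no p-value is given.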

Additional observations from a re-analysis of the deposited data

Results flagged for a closer look

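In experiment 1 hashtag 2 lay far above the other 7 hashtags, by a gap to the next that was past Dixon's 95% limit for 8 values. This held for S100a8 (256 CPM, next 91.6), S100a9 (254, next 111), Ngp (57.5, next 19.3), Camp (16.4, next 3.27), Lcn2 (13.6, next 6.50), the summed level (623 CPM, next 235) and the share of granule-rich cells (1.58%, next 0.434%). These 7 values are not independent, since they come from the same 19 cells. Ngp outside the granule-rich cells of experiment 1 was also set apart, at 0.576 CPM in hashtag 3 against 0.278 in the next. Of 32 sets of 8 hashtag values examined, 8 had such a value, all in experiment 1. The 7 genes were chosen on these levels, so nothing is read from the count.

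Barcodes with no clear hashtag, which no comparison used, also held granule-rich cells. In experiment 2 they were 160 of 1879 such barcodes (8.52%, 7.29 to 9.87%), against 3.10% of single cells, and made up 38.3% of all granule-rich cells that passed the cell filter. Of the 160, 66 had a top tag under 50 counts and 94 had a top tag under 3 times the second. Granule-rich single cells also had fewer tag counts than the others, with a median top tag of 137 against 248. In experiment 1 they were 5 of 535 (0.935%, 0.304 to 2.17%), against 0.466% of single cells.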

How the results depend on the processing

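The summed ratio of highest to lowest hashtag kept its size with a 5 times tag rule, with every hashtagged barcode, and with TMM or DESeq2 factors in both experiments. In experiment 1 (32.7) it was 98.9 with the stricter cell filter (at least 1000 genes, under 5% mitochondrial UMIs), 61.1 as a mean over cells, 112.7 after thinning to 3000 UMIs, 69.6 without the 5 barcodes of each hashtag with the most UMIs of the 7 genes and 3.53 without the granule-rich cells; leaving out 1 hashtag gave 12.3 to 32.7. In experiment 2 (190.3) the values were 267.5, 78.8, 329, 220.9 and 1.16 in the same order, 38.99 with the 2 times tag rule, and 11.7 to 190.3 leaving out 1 hashtag. The share of granule-rich cells in experiment 2 (3.10%) was 3.61% with the 2 times tag rule and 4.09% over every kept cell; the other alternatives, and all of them in experiment 1, stayed within its interval. The share of these UMIs in granulocyte-like clusters (98.14%) was 97.96% at resolution 1.0, 97.99% without the highest Scrublet scores and 98.51% with the stricter filter. In experiment 2 (96.09%) these were 96.17%, 97.78% and 91.37%, with 91.07% at 3000 variable genes and 91.37% when the 7 genes were kept. All 7 genes stayed at least 2-fold apart between experiments, and 6 without the granule-rich cells. The causes were not tested. Camp in experiment 1 was 2.64-fold apart without the top 5 barcodes of each hashtag, and mean CPM per cell gave no ratio because its lowest hashtags held 0. Depth limits genes with few UMIs, such as Camp, Ngp and Chil3 in experiment 1. No paired analysis was possible because hashtags carry no replicate number. The cell rule alternative without a hashtag and that without granule-rich cells were chosen after seeing the data.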
